A study of Mus musculus with 28 samples.

Results

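Transcript levels of 9 genes that the nuclear receptor PPARα controls, or that encode the receptor itself, were followed in 2 organs, liver and kidney, of mice that received oral nicotinamide mononucleotide (NMN), a precursor of NAD+. The genes were chosen by name, as PPARα-regulated genes of lipid storage, fasting signals and ketogenesis that lie outside fatty acid β-oxidation. They were chosen with earlier results of these data known, so that shares of all genes set beside them are a description and no test. All 9 (Ppara, Creb3l3, Fgf21, Angptl4, Vnn1, Pdk4, Plin2, Fabp1 and Cd36) were found among the 54446 genes counted in each library. Polyadenylated RNA was sequenced from male C57BL/6 mice aged 8 weeks, a strain given as C57BL6J in the study's methods. They received NMN in water, or water alone, by gavage for 7 days. One schedule gave a single gavage a day and 1340 mg/kg/d of NMN, with 4 NMN and 4 water libraries per organ. The other gave 2 gavages a day and 2680 mg/kg/d, with 3 NMN and 3 water libraries per organ, so that 28 libraries were made in all. The control mice of each schedule received as many gavages of water, without NMN. Because the dose and the number of gavages changed together, their effects cannot be told apart. The schedules also differed as sets of libraries, with mitochondrial transcripts at 9.48% to 9.71% of counted reads in the kidney groups at 1340 mg/kg/d and 20.4% to 20.6% at 2680 mg/kg/d. Differences between schedules cannot be told apart from such differences between libraries. Whether the mice had fed and the hour at which tissue was taken are not given in the sources used here. Counted reads per liver library ranged from 12688324 to 16455228 at 1340 mg/kg/d and from 17573184 to 20635269 at 2680 mg/kg/d. In the kidney the NMN libraries were the smaller ones at 1340 mg/kg/d (13174264 to 14006288 against 15354270 to 15696435 reads) and the larger ones at 2680 mg/kg/d (22922994 to 33872983 against 16358886 to 18983689 reads).

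PPARα is a receptor for fatty acids and their derivatives that binds DNA together with the retinoid X receptor. During fasting, fatty acids released from adipose tissue reach the liver, and PPARα switches on genes for their uptake, storage, oxidation and conversion to ketone bodies, as well as hormones that carry the fasted state to other tissues. It is abundant in hepatocytes and in the proximal tubule of the kidney, both of which burn fatty acids. The genes treated here are those that the receptor controls around the oxidation pathway: a partner transcription factor, secreted signals, an enzyme of pantetheine metabolism, a switch on pyruvate use, and proteins that take up, bind and store fatty acids.

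The libraries carried the markers of their labelled organs. The summed level of 5 hepatocyte markers, led by Alb, lay between 79620 and 155000 CPM (counts per 1000000 counted reads, scaled by TMM) in the 14 liver libraries and between 101.7 and 291.4 CPM in the 14 kidney libraries. The summed level of 8 kidney tubule markers, led by Slc34a1, lay between 9018 and 15680 CPM in the kidney. In the liver it lay between 18.1 and 24.3 CPM in the 8 libraries at 1340 mg/kg/d and between 0.710 and 13.9 CPM in the 6 at 2680 mg/kg/d. A few libraries stood apart in their clock genes. Among livers at 1340 mg/kg/d, the clock output gene Dbp had 0.632 CPM in water replicate 1 and between 94.1 and 138.9 CPM in the other 3 water mice. Among livers at 2680 mg/kg/d, it had 0.412 CPM in water replicate 1 and 64.8 and 134.8 CPM in the other 2 water mice. Arntl, the clock activator in antiphase to Dbp, was high in the same libraries, at 21.3 and 24.8 CPM, where the remaining water livers of each schedule had no more than 3.93 and 7.34 CPM. Water replicate 1 of the kidney stood apart in the same way, with Dbp at 7.14 and 8.23 CPM against at least 59.5 and 103.1 CPM in the other water mice. Some NMN libraries had low Dbp or high Arntl too. Arntl was at 33.5 CPM, the highest of all 28 libraries, in NMN replicate 1 of the livers at 2680 mg/kg/d (Dbp 9.41 CPM), at 14.4 to 15.4 CPM in NMN replicates 1 to 3 of the livers at 1340 mg/kg/d, and at 19.7 CPM in NMN replicate 1 of the kidneys at 2680 mg/kg/d (Dbp 31.3 CPM). NMN replicate 4 of the livers at 1340 mg/kg/d stood apart in its reads. Those outside any gene came to 12.8% of its counted reads and ambiguous ones to 5.1%, where the other 7 livers of the schedule had 4.91% to 7.44% and 3.09% to 3.59%. The part of this in the levels of the 9 genes was not tested. Results for Pdk4 and Vnn1 in the liver over both schedules, and for Pdk4 in each, are given with and without water replicate 1.

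In water mice the 9 genes split by organ. Compared per kilobase of exon, which allows levels to be set against each other between genes, Fabp1 had by far the highest level of the 9 in the liver, at 5854 ± 1187 CPM per kilobase (SD, n = 4) in the 1340 mg/kg/d schedule, and ranked 10 of 12446 genes. Creb3l3 (90.2 ± 8.49 CPM per kilobase) and Plin2 (89.4 ± 23.5) followed, with overlapping libraries, then Angptl4 (29.3 ± 10.4). Ppara (6.66 ± 2.79), Vnn1 (6.44 ± 2.32) and Cd36 (4.18 ± 1.38) overlapped one another. Pdk4 (0.869 ± 0.828) and Fgf21 (0.697 ± 0.762) were the lowest, and their libraries overlapped too. In the kidney of the same schedule the order was another: Cd36 led with 105.5 ± 20.6 CPM per kilobase (SD, n = 4), before Vnn1 (47.7 ± 4.11), Plin2 (26.5 ± 0.930) and Angptl4 (20.9 ± 5.18), where the libraries of Plin2 and Angptl4 overlapped. Creb3l3 had 0.240 ± 0.150 CPM per kilobase there, and Fgf21 had no count in any of the 4 water libraries.

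The liver had 835-fold more Fabp1 than the kidney in the 1340 mg/kg/d schedule, 376-fold more Creb3l3 and 3.37-fold more Plin2, as ratios of mean CPM. In the 2680 mg/kg/d schedule the same ratios were 7770, 998 and 3.66. The kidney had more Vnn1 (7.40-fold and 7.01-fold), Pdk4 (7.80-fold and 5.16-fold) and Cd36 (25.2-fold and 15.7-fold). For these 6 genes the libraries of the 2 organs did not overlap in either schedule. For Ppara and Angptl4 they overlapped in both. The change of the Fabp1 ratio came from the kidney side, where the water mice averaged 3.88 CPM at 1340 mg/kg/d and 0.453 CPM at 2680 mg/kg/d. The summed hepatocyte markers in the same kidneys averaged 246.7 and 150.2 CPM, and the part of liver RNA in the low kidney counts of Fabp1 and Creb3l3 was not tested.

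**Figure D1:**
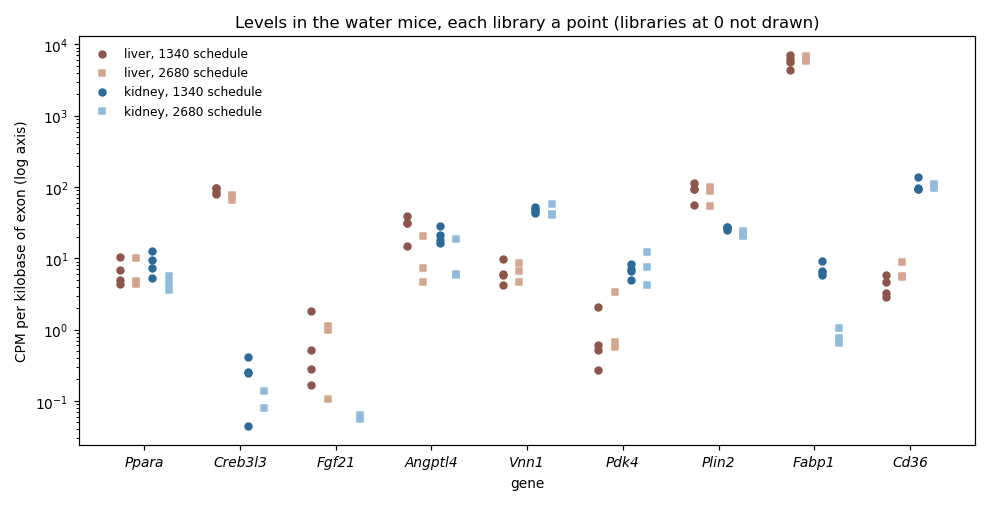
Level of each gene in the water mice, as CPM per kilobase of exon on a log axis, with one point per library and libraries at 0 left out (Fgf21 in all 4 kidneys of the 1340 mg/kg/d schedule, and Fgf21 and Creb3l3 in 1 kidney each at 2680 mg/kg/d). Fabp1, Creb3l3 and Plin2 lie higher in the liver, Vnn1, Pdk4 and Cd36 higher in the kidney, and Ppara and Angptl4 overlap between the organs.

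PPARα with its partner reads a direct repeat of the letters AGGTCA with 1 base between the copies, known as DR1. Promoter sequence from RefSeq (GRCm38.p6) was matched for 7 of the 9 genes, in 8 entries, without Vnn1 and Angptl4. The 250 bases before each start were searched on both strands for such a repeat (AGGTCA, any base, AGGTCA) with at most 2 mismatches, and for a single AGGTCA, which overlaps the repeat. Such a repeat lay in entries of 4 of the 7 genes, Fabp1, Plin2, Cd36 and Creb3l3, and in 3.24% of the 32851 mouse promoters searched in the same way. For Cd36 and Creb3l3 the entry with the repeat lies inside the gene at the position given below, before a start within it. A single AGGTCA is common, in 14% of promoters. The 4 sequences are shown because they hold an inexact match to this repeat. The match and any single AGGTCA are in capitals, 5′ to 3′ on the strand of the gene.
Fabp1, chr6:71199629-71199878, plus strand: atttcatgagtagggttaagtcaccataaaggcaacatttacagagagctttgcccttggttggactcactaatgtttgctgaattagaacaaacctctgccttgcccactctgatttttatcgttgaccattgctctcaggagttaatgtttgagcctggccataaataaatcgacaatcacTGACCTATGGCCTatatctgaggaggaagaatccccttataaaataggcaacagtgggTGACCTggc
Plin2, chr4:86670060-86670309, minus strand: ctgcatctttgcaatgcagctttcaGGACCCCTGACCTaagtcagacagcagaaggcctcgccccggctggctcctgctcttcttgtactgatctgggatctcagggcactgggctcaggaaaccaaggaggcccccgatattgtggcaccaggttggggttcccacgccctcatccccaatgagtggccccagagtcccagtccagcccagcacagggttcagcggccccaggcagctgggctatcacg
Cd36, chr5:17835897-17836146, minus strand: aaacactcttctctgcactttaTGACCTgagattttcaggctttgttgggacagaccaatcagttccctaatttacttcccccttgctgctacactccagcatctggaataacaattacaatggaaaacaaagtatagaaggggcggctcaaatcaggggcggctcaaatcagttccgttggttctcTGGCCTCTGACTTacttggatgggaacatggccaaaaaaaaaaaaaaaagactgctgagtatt
Creb3l3, chr10:81092592-81092841, minus strand: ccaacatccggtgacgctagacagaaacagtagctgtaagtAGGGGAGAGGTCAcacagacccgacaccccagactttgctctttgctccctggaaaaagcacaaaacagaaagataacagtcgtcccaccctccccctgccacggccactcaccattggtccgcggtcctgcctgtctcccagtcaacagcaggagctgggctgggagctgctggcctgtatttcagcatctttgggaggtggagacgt
The Fabp1 repeat had 1 mismatch, which 0.484% of promoters had or bettered, and lay 67 to 55 bases before the start. A further AGGTCA lay 9 to 4 bases before that start. The starts are those of RefSeq, and this further AGGTCA lies inside Fabp1 at the gene position given below. The repeats of Plin2 (225 to 213 bases before the start), Cd36 (63 to 51) and Creb3l3 (209 to 197) had 2 mismatches each. The other entry of Creb3l3, at the 5′ end of the gene, held no match in these 250 bases, nor did those of Pdk4, Fgf21 and Ppara. A match of letters is a description of the sequence, and binding was not measured here.

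In livers at 1340 mg/kg/d 8 of the 9 genes were higher on average with NMN and their median log2 fold change was 0.71, while 49.5% of all 12449 tested genes were higher and the median was -0.0027. As the 9 were chosen with earlier results known, such counts are a description. In the quasi-likelihood test of edgeR none of the 9 reached an adjusted p under 0.05, the threshold used throughout, which 0.0161% of the tested genes passed. At an unadjusted p under 0.05 there were 2 of them, Vnn1 and Cd36, against 6.86% of all genes. DESeq2's Wald test called 1 of the 9, Vnn1, where it called 74 of 22725 genes in all. Without NMN replicate 4, which stood apart in its reads, Vnn1 had 1.66 (adjusted p = 0.024 in edgeR), Fgf21 2.14, Angptl4 1.46, Pdk4 1.04 and Plin2 0.72, of which Vnn1 was the one that passed. In livers at 2680 mg/kg/d 8 of the 9 were higher again, with a median of 0.53, while 50.4% of all 12477 tested genes were, with a median of 0.0045. None passed an adjusted p under 0.05 in edgeR, where 7.08% of all genes did. There were 2 at an unadjusted p under 0.05, against 24.6% of all genes. DESeq2 called the same 2, Angptl4 as higher and Fabp1 as lower, where it called 1450 of 21070 genes in all. As these are whole organs, fewer cells of one type and less RNA per cell cannot be told apart in any of these values.

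Ppara, on chr15:85734983-85802819 (GRCm38), encodes the receptor. In the liver it had 18.8, 26.3, 40.4 and 16.7 CPM in the 4 water mice and 22.7, 24.4, 39.9 and 33.8 CPM in the 4 NMN mice at 1340 mg/kg/d. At 2680 mg/kg/d it had 16.7, 18.6 and 38.6 CPM with water and 22.9, 21.0 and 38.7 CPM with NMN. The groups overlapped in both schedules, and within each of the 4 groups the highest mouse lay well above the lowest. The log2 fold changes of 0.24 (SE 0.28, adjusted p = 0.914 in edgeR) and 0.16 (SE 0.36, adjusted p = 0.828) were smaller than their errors. In the kidney the water mice of the 1340 mg/kg/d schedule had 28.0, 47.9, 36.9 and 20.6 CPM and the NMN mice 61.2, 64.2, 21.2 and 43.1 CPM. In kidneys at 2680 mg/kg/d Ppara had 13.95, 17.5 and 21.9 CPM with water and 22.01, 26.4 and 28.7 CPM with NMN. Every NMN kidney lay above every water kidney in this last comparison, though the lowest NMN value and the highest water value differed by little, and the log2 fold change was 0.54 (SE 0.16, adjusted p = 0.231 in edgeR).

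Creb3l3, on chr10:81084324-81098874, encodes a membrane-bound transcription factor of hepatocytes that works together with PPARα in fasting and drives Fgf21 among others. In 3 of the 4 liver groups it was the steadiest of the 9 genes, with a coefficient of variation of at most 9.41%, while that of the NMN livers at 2680 mg/kg/d was 28.2%, above that of Pdk4. It had 292, 294.9, 242.9 and 258.1 CPM in water mice and 304, 284.9, 324.7 and 260.5 CPM in NMN mice at 1340 mg/kg/d, and 200.9, 224.6 and 233.5 CPM against 172.5, 304.5 and 227.2 CPM at 2680 mg/kg/d. The groups overlapped, with log2 fold changes of 0.11 (SE 0.12) and 0.10 (SE 0.19) and adjusted p-values in edgeR of 0.912 and 0.808. In the kidney no library had more than 19 counts, so that differences were not detectable at this depth, and the gene was too low to be tested there at 2680 mg/kg/d.

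**Figure D2:**
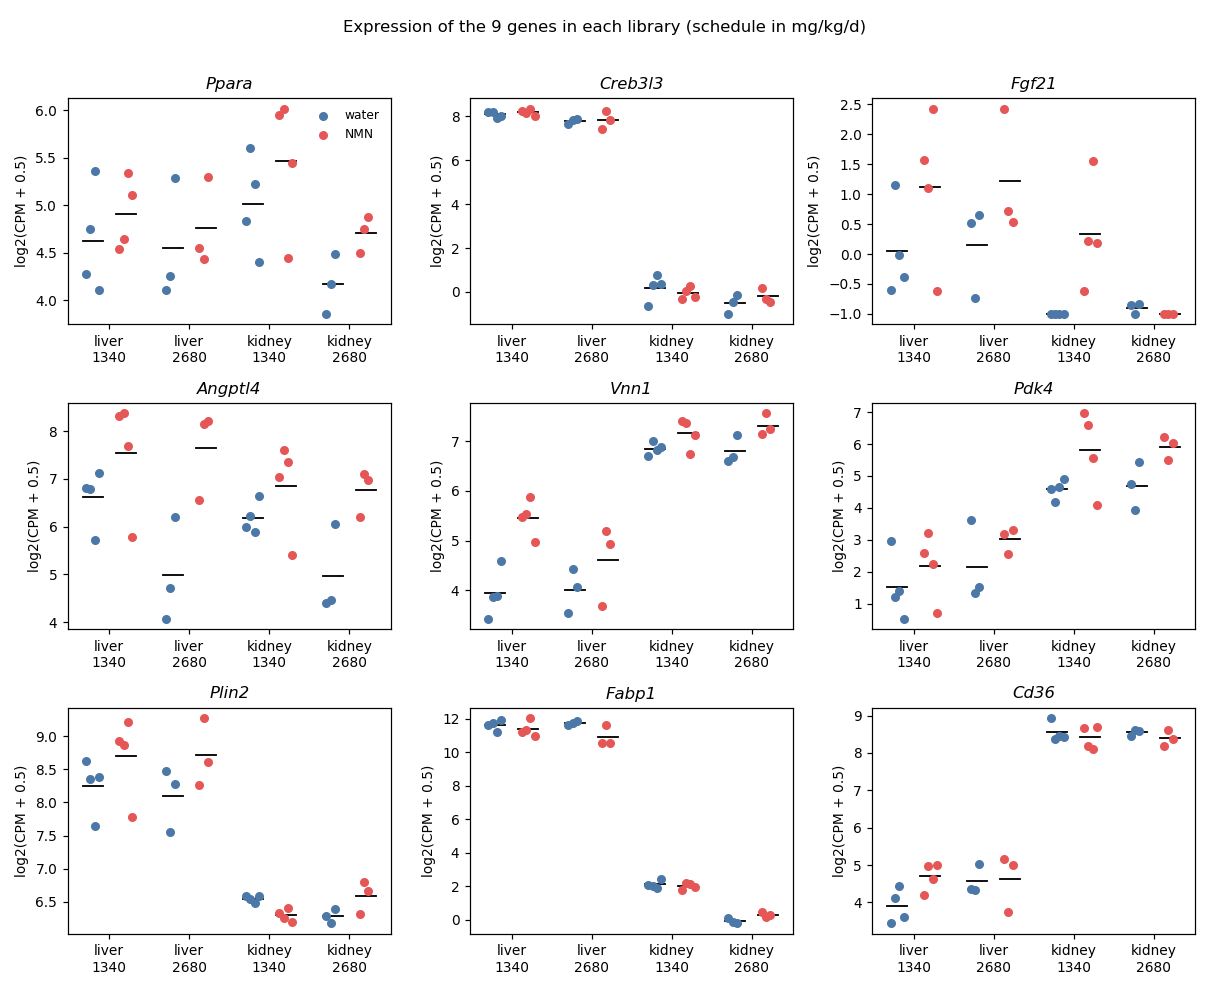
Level of each of the 9 genes in every library, as log2(CPM + 0.5), with water mice in blue, NMN mice in red and the group mean as a black line, for liver and kidney of both schedules. Vnn1 in the liver at 1340 mg/kg/d separates the groups fully (10.3 to 23.5 CPM against 31.0 to 58.2 CPM), while Creb3l3 and Ppara overlap in the liver.

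Fgf21, on chr7:45613886-45615490, encodes a hormone that the liver secretes in fasting. It was at or near the limit of detection. In the liver at 1340 mg/kg/d it had 2, 26, 7 and 4 counts in the water mice and 33, 27, 76 and 2 counts in the NMN mice, or 0.158 to 1.73 CPM against 0.151 to 4.87 CPM. At 2680 mg/kg/d it had 18, 2 and 18 counts with water and 98, 24 and 18 with NMN. The groups overlapped in both schedules, since 1 NMN mouse at 1340 mg/kg/d held the lowest level of its schedule and 1 NMN mouse at 2680 mg/kg/d held 4.83 CPM while the other 2 had no more than 1.15 CPM. The log2 fold changes were 1.76 (SE 0.87) and 1.73 (SE 0.82), with adjusted p-values in edgeR of 0.774 and 0.227. With single libraries left out they ran from 1.08 to 2.86 at 1340 mg/kg/d and from 0.59 to 2.15 at 2680 mg/kg/d. The adjusted p in edgeR was then at least 0.397 and 0.171. In the kidney at 1340 mg/kg/d no water library had a count, while the NMN libraries had 2, 9, 34 and 9. Set against a floor of 3 counts over the water group, the NMN kidneys were at least 20.4-fold higher. Without NMN replicate 3, which held 34 of the 54 counts, they were at least 10.1-fold higher. The groups did not overlap (p = 0.0286 in a two-sided exact permutation test, the smallest that 4 against 4 allow). Among the genes tested in that comparison, 2.29% had every NMN kidney above every water kidney. Fgf21 was too low to be one of them, so that this share is no reference for it. At 2680 mg/kg/d the 3 water kidneys had 1, 0 and 1 counts and the 3 NMN kidneys none, so that the higher counts were seen in the kidney at 1340 mg/kg/d and were below the floor at 2680 mg/kg/d, where the libraries were deeper. The gene was too low for the edgeR test in either kidney comparison.

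Angptl4, on chr17:33773750-33781830, encodes a secreted inhibitor of lipoprotein lipase that rises in fasting in several tissues. Its levels were 112, 111, 52.4 and 139.9 CPM in the water livers at 1340 mg/kg/d and 318, 332, 206 and 54.6 CPM in the NMN livers. Here 3 NMN mice lay above every water mouse, and NMN replicate 4 lay with the lowest water mouse. The log2 fold change was 1.13 (SE 0.57, adjusted p = 0.802 in edgeR). The levels at 2680 mg/kg/d were 16.3, 25.9 and 72.7 CPM in water livers and 93.7, 286 and 298 CPM in NMN livers. All NMN livers lay above all water livers, and the 5.91-fold difference (log2 2.56, SE 0.76) was the largest of the 9 genes in the liver. Without water replicate 3 the log2 value was 3.42, and it ran from 2.20 to 2.93 with any one of the other libraries left out. It did not pass in edgeR (adjusted p = 0.123), but did in DESeq2 (adjusted p = 0.0148), in edgeR without the robust option (adjusted p = 0.0261), and in edgeR under a block of replicate numbers (2.67, adjusted p = 0.00566). Groups that do not overlap were common in this comparison, where 29.8% of tested genes had them, 13.8% with NMN higher. In the kidney at 1340 mg/kg/d Angptl4 had 63.4, 74.6, 58.9 and 99.8 CPM in water mice against 130.8, 195.7, 163.7 and 41.8 CPM in NMN mice. Here too 3 NMN mice lay above all water mice, and NMN replicate 4 lay below every water mouse, and without it the log2 fold change of 0.84 (SE 0.47, adjusted p = 0.671 in edgeR) became 1.14 (adjusted p = 0.0297), while other single libraries left out took it as low as 0.60 (adjusted p up to 0.95). The kidneys at 2680 mg/kg/d had 20.5, 21.7 and 66.5 CPM with water and 73.4, 137.5 and 125.8 CPM with NMN, which did not overlap (log2 fold change 1.64, SE 0.61, adjusted p = 0.458 in edgeR). With single libraries left out the log2 value there ran from 1.34 to 2.41 (adjusted p between 0.187 and 0.738 in edgeR).

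Vnn1, on chr10:23894688-23905343, encodes pantetheinase, a membrane-anchored enzyme that splits pantetheine into pantothenate and cysteamine and is a known PPARα target in hepatocytes. It showed the clearest difference of the 9 in the liver. With 1340 mg/kg/d the water livers had 10.3, 14.2, 14.3 and 23.5 CPM and the NMN livers 43.7, 46.1, 58.2 and 31.0 CPM. Every NMN liver lay above every water liver (exact permutation test, two-sided, p = 0.0286), which 1.78% of tested genes showed in that direction. The 2.87-fold difference (log2 1.52, SE 0.25) ranked 9 of 12449 genes by p and stayed short of the threshold in edgeR (adjusted p = 0.0659). DESeq2 gave an adjusted p of 1.05e-05. Leaving out water replicate 4 or NMN replicate 4, the water and NMN mice nearest to each other, brought the adjusted p in edgeR to 0.0274 and 0.024, and over all single libraries left out it reached 0.279 at most, with values of 1.37 to 1.79. With 2680 mg/kg/d the water livers had 11.1, 21.0 and 16.2 CPM and the NMN livers 12.4, 36.1 and 29.9 CPM. There 2 NMN mice lay above the water mice and NMN replicate 1 lay among them, with a log2 fold change of 0.70 (SE 0.39, adjusted p = 0.306 in edgeR) that became 1.03 without that mouse (adjusted p = 0.0354) and 0.38 without NMN replicate 2 (adjusted p = 0.603). The kidney, with its higher level, had 103.5, 127.1, 112.1 and 117.8 CPM in water mice and 168, 165.5, 107 and 138.4 CPM in NMN mice at 1340 mg/kg/d. At 2680 mg/kg/d it had 96.4, 102.5 and 139.7 CPM against 140.6, 188.4 and 150.9 CPM. The groups overlapped by 1 NMN mouse in the first schedule and just parted in the second, with log2 fold changes of 0.33 (SE 0.13) and 0.50 (SE 0.16) and adjusted p-values in edgeR of 0.436 and 0.304.

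Pdk4, on chr6:5483351-5496309, encodes a mitochondrial kinase that shuts down pyruvate dehydrogenase and so spares glucose in fasting. The 4 water livers at 1340 mg/kg/d had 7.35, 1.80, 2.12 and 0.945 CPM and the NMN livers 5.55, 8.83, 4.23 and 1.13 CPM. The 3 water livers at 2680 mg/kg/d had 11.8, 2.003 and 2.37 CPM and the NMN livers 8.62, 5.40 and 9.35 CPM. The highest water value of each schedule was that of water replicate 1, the library that stood apart in its clock genes. At 2680 mg/kg/d the groups overlapped only through it, while at 1340 mg/kg/d NMN replicate 4 also lay among the other water livers. The log2 fold changes were 0.71 (SE 0.70, adjusted p = 0.894 in edgeR) and 0.53 (SE 0.67, adjusted p = 0.685). Without water replicate 1 they became 1.61 (adjusted p = 0.577 in edgeR) and 1.83 (adjusted p = 0.0301). Other single libraries lowered them, to 0.27 without NMN replicate 2 at 1340 mg/kg/d (adjusted p = 0.985 in edgeR), and to 0.13 and 0.17 without water replicate 2 or 3 at 2680 mg/kg/d (adjusted p = 0.939 and 0.908). In the kidney the 1340 mg/kg/d water mice had 23.4, 17.6, 24.7 and 29.6 CPM and the NMN mice 124.4, 97.0, 46.8 and 16.5 CPM. Thus 3 NMN kidneys lay above every water kidney and NMN replicate 4 lay below them all, as for Angptl4 (log2 fold change 1.58, SE 0.62, adjusted p = 0.537 in edgeR). For 2680 mg/kg/d the kidney values were 26.1, 14.9 and 42.5 CPM with water and 74.2, 44.3 and 65.6 CPM with NMN, without overlap (log2 fold change 1.14, SE 0.45, adjusted p = 0.47 in edgeR).

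Plin2, on chr4:86648386-86670060, encodes the main coat protein of lipid droplets in hepatocytes. Water livers at 1340 mg/kg/d had 395, 327, 199 and 334 CPM and NMN livers 488, 466, 595 and 219 CPM. Water livers at 2680 mg/kg/d had 354, 187.5 and 311 CPM and NMN livers 308, 620.1 and 389 CPM. In each schedule 1 NMN mouse lay within the water range and the others above it, with log2 fold changes of 0.49 (SE 0.30) and 0.63 (SE 0.30) and adjusted p-values in edgeR of 0.815 and 0.243. The kidney values were tighter, and the sign of the difference was not the same in both schedules. The water kidneys at 1340 mg/kg/d had 95.1, 92.9, 88.5 and 95.8 CPM and the NMN kidneys 79.8, 75.9, 84.2 and 72.5 CPM. Every NMN kidney lay below every water kidney, as for 2.83% of tested genes (log2 fold change -0.25, SE 0.09, adjusted p = 0.385 in edgeR). Kidneys at 2680 mg/kg/d had 77.4, 71.6 and 83.7 CPM with water and 79.4, 110.5 and 100.4 CPM with NMN, with 1 NMN mouse inside the water range (log2 fold change 0.32, SE 0.12, adjusted p = 0.324 in edgeR). Without that mouse, NMN replicate 1, the value was 0.44 (adjusted p = 0.039), and with other libraries left out it fell as low as 0.21 (adjusted p up to 0.651). The difference between the schedules in the kidney, tested as an interaction, was 0.57 on the log2 scale (SE 0.14) and did not pass over all genes (adjusted p = 0.606 in edgeR).

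Fabp1, on chr6:71199827-71205023, encodes the fatty acid binding protein of the hepatocyte cytosol. Unlike the other 8 genes it was lower on average with NMN in the liver. It stood at 3121, 3480, 2396 and 3952 CPM in the water livers at 1340 mg/kg/d and at 2383, 2632, 4262 and 1994 CPM in the NMN livers, with wide overlap (log2 fold change -0.20, SE 0.23, adjusted p = 0.912 in edgeR). Under 2680 mg/kg/d it stood at 3201, 3519 and 3827 CPM in the water livers and at 1499, 3150 and 1515 CPM in the NMN livers. All NMN livers lay below all water livers, which 16% of tested genes showed, but NMN replicate 2 lay just below the lowest water mouse. The log2 fold change of -0.78 (SE 0.28) did not pass in edgeR (adjusted p = 0.135), passed in DESeq2 (adjusted p = 0.0261) and became -1.23 without NMN replicate 2 (adjusted p = 0.00112 in edgeR), the far end of a range that began at -0.60 (adjusted p up to 0.319) with other libraries left out. In the same livers the summed hepatocyte markers were lower with NMN too, at 105900, 116700 and 118400 CPM against 155000, 146800 and 140000 CPM with water, and their part in the Fabp1 difference was not tested. In the kidney at 2680 mg/kg/d Fabp1 had 0.577, 0.421 and 0.360 CPM with water and 0.882, 0.613 and 0.717 CPM with NMN, from 6 to 24 counts per library. These groups did not overlap either, with NMN higher (log2 fold change 0.68, SE 0.40, adjusted p = 0.565 in edgeR), but the gene passed the filter on low counts there only through the NMN kidneys. In the kidney at 1340 mg/kg/d the groups overlapped (log2 fold change -0.12, SE 0.25).

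Cd36, on chr5:17781690-17888801, encodes a membrane receptor that takes up long-chain fatty acids. Livers at 1340 mg/kg/d had 10.4, 17.0, 21.1 and 11.7 CPM with water and 18.0, 30.9, 24.3 and 31.3 CPM with NMN. Here 3 NMN mice lay above all water mice and NMN replicate 1 lay within their range (log2 fold change 0.80, SE 0.24, adjusted p = 0.461 in edgeR). Those at 2680 mg/kg/d had 20.02, 19.5 and 32.0 CPM with water and 35.3, 12.8 and 31.5 CPM with NMN, with no separation (log2 fold change 0.15, SE 0.37). In the kidney, where Cd36 was abundant, the values ran from 332.5 to 489 CPM in water mice and from 273.7 to 415.5 CPM in NMN mice at 1340 mg/kg/d, and from 347.6 to 393 CPM against 291.6 to 389.2 CPM at 2680 mg/kg/d. The groups overlapped in both, and the log2 fold changes of -0.12 (SE 0.16) and -0.15 (SE 0.11) had adjusted p-values of 0.87 and 0.642 in edgeR.

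Counted over the members in the kidney, none passed an adjusted p under 0.05 in edgeR in either schedule, where 0.12% and 0.4% of all genes did. DESeq2 called no member, where it called 159 of 26479 and 236 of 26920 genes in all. At an unadjusted p under 0.05 there were 3 of 8 tested members at 1340 mg/kg/d (Vnn1 and Pdk4 higher, Plin2 lower), against 8.94% of all genes. There were 3 of 7 at 2680 mg/kg/d (Ppara, Vnn1 and Plin2, all higher), against 11.1%. The median log2 fold change over the tested members was 0.11 at 1340 mg/kg/d and 0.54 at 2680 mg/kg/d, while it was 0.0011 and 0.0038 over all genes. Of the 7 tested members at 2680 mg/kg/d, Ppara, Angptl4, Vnn1 and Pdk4 had NMN kidneys that all lay above the water kidneys, which 8.47% of all tested genes had. Fabp1 did too, but with 6 to 24 counts per library it passed the filter on low counts only through the NMN kidneys. This share is therefore no reference for Fabp1, whose value is part of the median at 2680 mg/kg/d. No exact test of a single gene could go below p = 0.1 there, with 3 mice against 3.

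**Figure D3:**
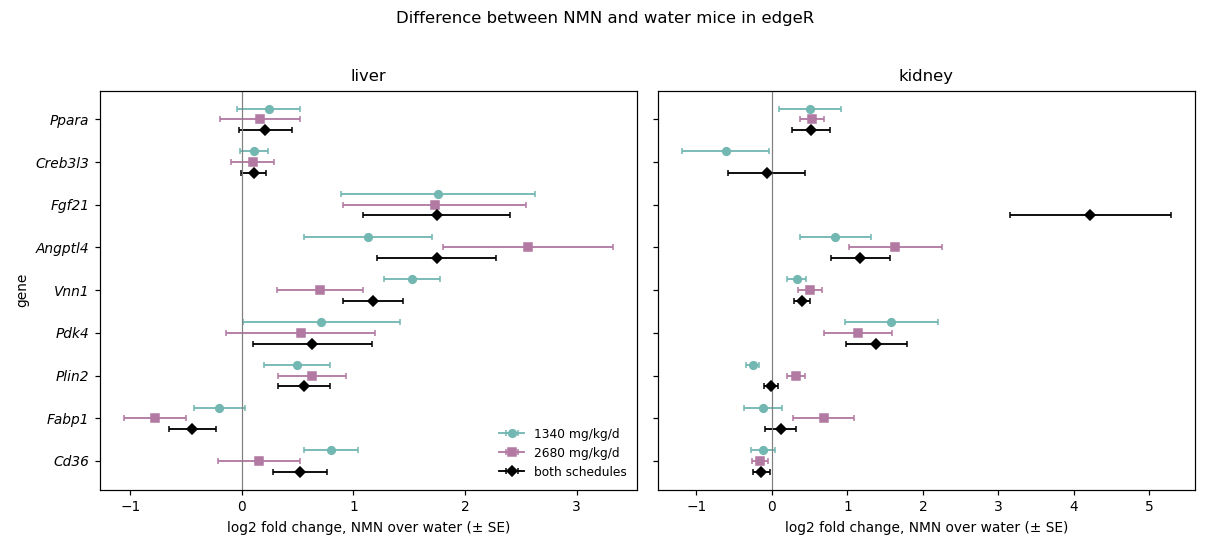
Log2 fold change of NMN over water for each gene in edgeR, with bars of ± 1 SE, in the liver (left) and the kidney (right), for each schedule and for both schedules in one fit. Vnn1 in the liver over both schedules (1.17) is the one value that passed an adjusted p under 0.05, Fabp1 is the one gene below 0 in the liver, and genes too low to test have no point; the Fgf21 value in the kidney rests on water kidneys with 0 or 1 count and is no estimate of size.

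With both schedules in one fit, which took the mean of their effects over the 14 libraries of an organ, Vnn1 rose in the liver by 1.17 on the log2 scale (SE 0.27), or 2.25-fold, with an adjusted p of 0.0293 in edgeR. It was the only one of the 9 that passed, where 4.21% of the tested genes did, 2.02% as higher. The call was near its limit: leaving out single libraries kept the log2 fold change between 1.06 and 1.34 but took the adjusted p to between 0.0532 and 0.0755 for 6 of the 14 (at 1340 mg/kg/d water replicate 2 and NMN replicate 2, at 2680 mg/kg/d water replicates 1 and 3 and NMN replicates 2 and 3). Without the 2 liver libraries of water replicate 1 it was 0.99 (adjusted p = 0.108), and without a filter on low counts the adjusted p was 0.0672. Angptl4 had a log2 fold change of 1.74 (SE 0.53, adjusted p = 0.0857 in edgeR and 0.0121 in DESeq2) and Fgf21 of 1.75 (SE 0.66, adjusted p = 0.133 and 0.0488). Without NMN replicate 4 of the 1340 mg/kg/d schedule the value of Angptl4 was 1.98 (adjusted p = 0.038 in edgeR), and it was at least 1.52 (adjusted p up to 0.181) with any other library left out. Plin2 (0.55), Cd36 (0.52) and Fabp1 (-0.44) had adjusted p-values between 0.182 and 0.228 in edgeR, and Pdk4 (0.63), Ppara (0.21) and Creb3l3 (0.11) of 0.526 or higher.

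In the kidney none of the 9 passed over both schedules in edgeR, where 1.28% of genes did. At an unadjusted p under 0.05 there were 3 of the 8 other than Fgf21 (Vnn1, Angptl4 and Pdk4, all higher), against 13% of all genes. DESeq2 called Vnn1 and Pdk4, where it called 509 of 29046 genes in all. Pdk4 had a log2 fold change of 1.38 (SE 0.40, adjusted p = 0.137 in edgeR and 0.0185 in DESeq2), which became 1.55 without NMN replicate 4 of the 1340 mg/kg/d schedule (adjusted p = 0.0435 in edgeR) and was at least 1.15 (adjusted p up to 0.253) with any other library left out. Vnn1 had 0.40 (SE 0.11, adjusted p = 0.0753 in edgeR and 0.017 in DESeq2), and without NMN replicate 3 of the 1340 mg/kg/d schedule 0.47 (adjusted p = 0.00826 in edgeR), with a lowest value of 0.34 (adjusted p up to 0.17) over the other libraries left out. Angptl4 had 1.17 (SE 0.39, adjusted p = 0.204) and Ppara 0.52 (SE 0.25, adjusted p = 0.414). Fgf21 passed the filter on low counts only through the NMN kidneys of the 1340 mg/kg/d schedule, so that it was left out of these counts, and its fitted value depends on the small count that the fit adds. Plin2 (-0.01), Creb3l3 (-0.07), Fabp1 (0.12) and Cd36 (-0.14) had adjusted p-values of 0.651 or higher.

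Whether the response differed between organs or schedules was tested as an interaction for each gene. No member passed in any of the 4 interactions in edgeR, where 0.0746% (schedules, liver), 0.00625% (schedules, kidney), 0% (organs, 1340 mg/kg/d) and 2.67% (organs, 2680 mg/kg/d) of all genes did, and DESeq2 called no member in any of them. For Vnn1 the response was 1.18 larger on the log2 scale in the liver than in the kidney at 1340 mg/kg/d (SE 0.30, adjusted p = 0.375 in edgeR) and 0.18 larger at 2680 mg/kg/d (SE 0.46). For Cd36 it was 0.90 larger in the liver at 1340 mg/kg/d (SE 0.31, adjusted p = 0.686). For Fabp1 the liver and kidney responses at 2680 mg/kg/d differed by -1.47 (SE 0.53, adjusted p = 0.15), and by -1.95 without liver NMN replicate 2 (adjusted p = 0.00396) or as little as -1.26 (adjusted p up to 0.294) without another library. The Angptl4 response was 1.44 larger in the liver at 2680 than at 1340 mg/kg/d, with an SE of 0.98 (adjusted p = 0.759). At an unadjusted p under 0.05 the 8 members other than Fgf21 counted 0 and 1 in the interactions of schedules in liver and kidney, against 8.6% and 4.61% of all genes, and 3 and 1 in those of organs at 1340 and 2680 mg/kg/d, against 5.79% and 19.4%.

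Pdk4 varied with the clock genes in the liver. The 2 liver libraries with the least Dbp, water replicate 1 of each schedule, had 7.35 and 11.8 CPM of Pdk4, and the 3 NMN livers of the 1340 mg/kg/d schedule with 4.11 to 18.9 CPM of Dbp had 4.23 to 8.83 CPM of Pdk4. NMN replicate 4 of that schedule, with 126 CPM of Dbp like the other water mice, had 1.13 CPM. With each group's mean taken out, the log2 levels of Pdk4 and Dbp correlated over the 14 liver libraries with r = -0.945, and those of Pdk4 and Arntl with r = 0.881. The correlation with Dbp was -0.929 over the 8 libraries at 1340 mg/kg/d, -0.976 over the 6 at 2680 mg/kg/d, and -0.892 over 12 without both water replicate 1 libraries. In the kidney the correlations over 14 libraries were -0.187 with Dbp and 0.204 with Arntl, and -0.465 with Dbp without both water replicate 1 libraries. These are descriptions, with no test, over libraries that differ in depth. Without water replicate 1 of both schedules, the log2 fold change of Pdk4 in the liver over both schedules was 1.71 and passed (adjusted p = 0.0356 in edgeR). Only water libraries were left out there, and without NMN replicate 1, the NMN liver with the most Arntl, the value at 2680 mg/kg/d went from 0.53 to 0.44 (adjusted p = 0.843). With a clock score as a covariate, the log2 level of Dbp minus that of Arntl, the value of Pdk4 in the liver over both schedules was 0.55 (SE 0.23, adjusted p = 0.151 in edgeR), and that of Vnn1 1.29 (adjusted p = 0.0157). The score was built from the same genes that were correlated with Pdk4 above. The part of the clock phase in these results was not tested beyond these values.

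**Figure D4:**
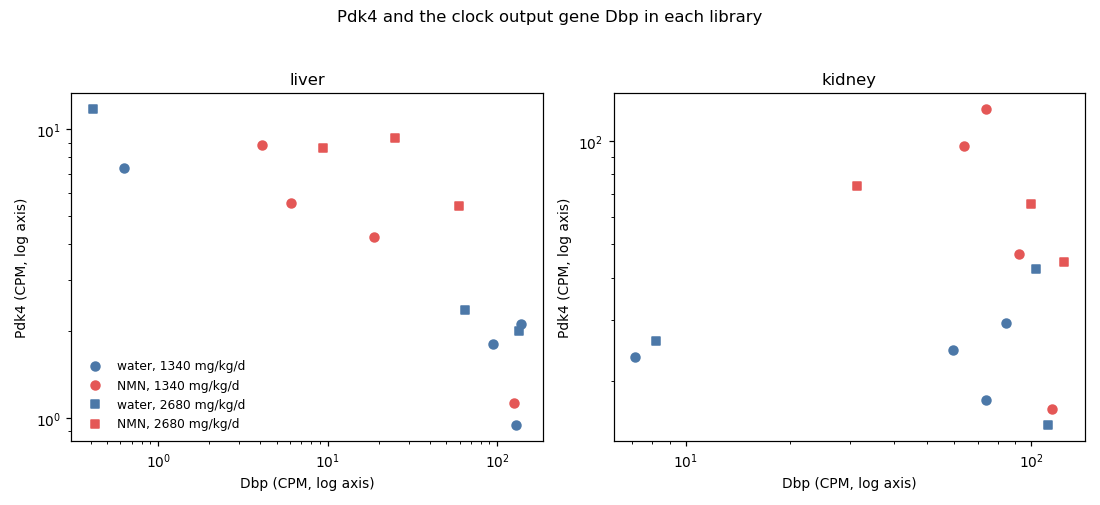
Level of Pdk4 against that of the clock output gene Dbp in each library, both in CPM on log axes, for the liver (left) and the kidney (right), with water mice in blue, NMN mice in red, circles for 1340 and squares for 2680 mg/kg/d. In the liver libraries with less Dbp tend to have more Pdk4 (r = -0.945 with group means removed), and in the kidney the points do not line up (r = -0.187).

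With group means taken out, the correlations over the 14 liver libraries ran from -0.646 (Creb3l3 and Cd36) to 0.764 (Fabp1 and Creb3l3) over the 36 pairs of the 9 genes, with a median of 0.134. High pairs were also Plin2 with Fabp1 (r = 0.717), Ppara with Cd36 (r = 0.672) and Angptl4 with Plin2 (r = 0.671). In the kidney, without Fgf21 and Creb3l3, they ran from -0.589 (Ppara and Fabp1) to 0.759 (Ppara and Vnn1) over 21 pairs, with a median of 0.158, and Angptl4 had r = 0.684 with Pdk4 and 0.635 with Plin2. The genes whose pattern over the 14 libraries of an organ was most like that of a member, after subtracting the water mean of the schedule, were looked up among 13411 other genes in the liver and 15988 in the kidney. For Vnn1 in the liver these were Acadl (r = 0.930), St3gal5 (0.925) and Fkbp5 (0.909), and in the kidney Decr2 (0.930), N4bp2 (0.924) and Gm4724 (0.905). For Angptl4 in the liver they were Nfkbia (0.936), Polr3gl (0.926) and Gstm1 (0.917). For Pdk4 they were Irf2bp2 (0.942), Chka (0.889) and Pnrc1 (0.887) in the liver, and Txnip (0.924) and Klf10 (0.889) were among the 3 best in the kidney. The best match in the liver was Hbp1 for Ppara (0.954), Ppip5k2 for Cd36 (0.943), Gpd1 for Fabp1 (0.911), Hspa1b for Plin2 (0.886), Zfp365 for Fgf21 (0.877) and Polr1a for Creb3l3 (0.843). No other member was among the 3 best matches of any. Exons of Hbp1, Ppip5k2, Polr3gl, Irf2bp2, Chka, Gpd1, Polr1a, N4bp2 and Txnip overlap those of another annotated gene, and reads were counted without strand, so that their values are less certain.

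Around these genes, the rest of the pathway was described with lists of receptors, regulators and enzymes over both schedules. Of 18 PPAR receptors, retinoid X receptors and coregulators, 2 rose in the liver in edgeR and none fell, where 4.21% of all genes passed and 2.02% rose, with a median log2 fold change of 0.35 against 0.0057 over all genes. They were Lpin2, a phosphatidate phosphatase grouped here with the coactivator Lpin1 (1.26, SE 0.30, adjusted p = 0.0389), and the corepressor Ncor1 (0.51, SE 0.14, adjusted p = 0.0495). Lpin2 had 178 ± 40.6 CPM in water livers and 287 ± 105 CPM in NMN livers (SD, n = 4 each) at 1340 mg/kg/d (log2 fold change 0.69, adjusted p = 0.656 in edgeR), and 97.2 ± 33.1 CPM against 395 ± 139 CPM (SD, n = 3 each) at 2680 mg/kg/d (2.02, adjusted p = 0.0105). The difference between the schedules of 1.34 (SE 0.46) did not pass as an interaction (adjusted p = 0.405 in edgeR). Neither call was firm, as leaving out any one of 10 libraries for Lpin2 and of 11 for Ncor1, of 14, took the adjusted p above 0.05, to at most 0.0941 and 0.128. The acetyltransferase coactivator gene Ep300 had 0.61 (adjusted p = 0.0567 in edgeR and 0.0225 in DESeq2).

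Of 14 other transcription factors of fasting metabolism, 3 rose in the liver (Hnf4a, Foxo1 and Crtc2) and 2 fell (Cebpa and Nr1h3), against the same 4.21% of all genes that passed. Hnf4a, a master regulator of hepatocyte genes, rose by 0.64 on the log2 scale (SE 0.11, adjusted p = 0.00507 in edgeR). It had 536 ± 57.6 CPM in water livers and 858 ± 102 CPM in NMN livers (SD, n = 4 each) at 1340 mg/kg/d, and 546 ± 48.0 CPM against 812 ± 182 CPM (SD, n = 3 each) at 2680 mg/kg/d. Its adjusted p over both schedules was at most 0.017 with any one library left out. Cebpa, a factor that holds hepatocytes in their differentiated state, fell by 0.53 (SE 0.14, adjusted p = 0.0404), and the oxysterol receptor gene Nr1h3 fell by 0.38 (SE 0.10, adjusted p = 0.0349). The calls of Cebpa, Nr1h3, Foxo1 and Crtc2 were each lost without any one of 9 or 10 of the 14 libraries, at an adjusted p of at most 0.125.

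Relatives of the members differed among themselves. Plin4, another lipid droplet coat gene, rose by 3.22 on the log2 scale in the liver (SE 0.36, adjusted p = 0.00043 in edgeR), from 1.58 ± 0.967 to 12.4 ± 6.67 CPM (SD, n = 4 each) at 1340 mg/kg/d and from 0.914 ± 0.376 to 10.9 ± 4.55 CPM (SD, n = 3 each) at 2680 mg/kg/d. Its adjusted p was at most 0.00266 with any one library left out. It was the only one of 15 tested lipid droplet genes that passed, and Plin5 had 0.76 (SE 0.25, adjusted p = 0.0916 in edgeR and 0.019 in DESeq2). Among the relatives of Angptl4, Pdk4 and Vnn1 and the enzymes they act on, 1 of 18 rose and 1 fell, where 4.21% of all genes passed. Of the same 18, 1 rose (Pdp2) and 3 fell (Lipc, Lmf1 and Vnn3) at 2680 mg/kg/d, where 7.08% of all genes passed. The pyruvate dehydrogenase phosphatase gene Pdp2, whose product opposes Pdk4, rose by 0.54 (SE 0.12, adjusted p = 0.0223 in edgeR). Hepatic lipase, Lipc, fell by 0.84 (SE 0.20, adjusted p = 0.0287) as the mean of unequal responses. It had 173 ± 22.6 CPM in water livers and 144 ± 18.4 CPM in NMN livers (SD, n = 4 each) at 1340 mg/kg/d, and 245 ± 26.7 CPM against 79.8 ± 7.51 CPM (SD, n = 3 each) at 2680 mg/kg/d. The difference between the schedules was -1.34 on the log2 scale (SE 0.20) and passed as an interaction (adjusted p = 0.00884 in edgeR). Leaving out any one of 3 libraries for Pdp2 and of 6 for Lipc, all of the 2680 mg/kg/d schedule, took the adjusted p above 0.05, to at most 0.0656 and 0.0869.

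Over both schedules none of 15 tested genes of fatty acid uptake and binding passed in the liver in edgeR, none of 8 receptors and partners of FGF21 and glucagon, and none of 8 ketone body genes. At an unadjusted p under 0.05 these counted 4, 0 and 0, while 21.9% of all genes did. DESeq2 called none of these genes, where it called 1151 of 24281 genes in all. In livers at 2680 mg/kg/d alone, where 7.08% of all genes passed, 1 of the 15 uptake genes rose and 2 fell. Acsl3, an acyl-CoA synthetase gene, rose by 0.83 on the log2 scale (SE 0.21, adjusted p = 0.0421 in edgeR), its relative Acsl5 fell by 0.65 (SE 0.18, adjusted p = 0.0495), and Dbi, the acyl-CoA binding protein gene, fell by 0.60 (SE 0.15, adjusted p = 0.0416). All 8 ketone body genes were lower there on average (median -0.36), 4 at an unadjusted p under 0.05. Exons of Acsl3 and Acsl5 overlap those of another gene. In the kidney over both schedules the same lists and those of coregulators, fasting regulators, lipid droplet genes and relatives held no gene that passed in edgeR. Their counts at an unadjusted p under 0.05 were 2 of 15 (uptake), 1 of 8 (receptors), 2 of 8 (ketone bodies), 1 of 18 (coregulators), 5 of 14 (fasting regulators), 4 of 18 (lipid droplet) and 5 of 17 (relatives), against 13% of all genes. DESeq2 called 6 genes of these 7 lists there, where it called 509 of 29046 genes in all. The forkhead factor gene Foxo3 had 0.74 (SE 0.17, adjusted p = 0.0604 in edgeR and 0.000161 in DESeq2) and the glucocorticoid-responsive Klf15 had 0.42 (SE 0.11, adjusted p = 0.0612 and 0.0107). The mitochondrial kinase gene Pdk1, a relative of Pdk4, had 0.28 (adjusted p = 0.0644 and 0.0201). The lipid droplet gene Plin3 had -0.23 (adjusted p = 0.06 and 0.0118), the thiolase gene Acat1 of ketone body use -0.27 (adjusted p = 0.0618 and 0.0155), and the fatty acid binding protein gene Fabp7 -0.62 (adjusted p = 0.0732 and 0.0266).

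For comparison, 9 of 29 tested PPARα targets of fatty acid oxidation and ω-hydroxylation rose in the liver and 3 of 30 in the kidney in edgeR, and none fell, where 4.21% and 1.28% of all genes passed. In the liver Cyp4a31 (3.11, adjusted p = 0.00438), Cyp4a10 (2.37, adjusted p = 0.00841) and Ehhadh (1.08, adjusted p = 0.00575) were among them and passed with any one library left out. In the kidney they were Acaa1b (0.39, adjusted p = 0.023), Hsd17b4 (0.28, adjusted p = 0.029) and Acot2 (0.45, adjusted p = 0.0325), each lost without any one of 4, 8 and 10 of the 14 libraries. The Cyp4a, Acaa1 and Acot genes have close paralogs among which reads could be split. Over both schedules none of 14 clock genes passed in the liver or the kidney in edgeR, with 1 and 2 at an unadjusted p under 0.05. DESeq2 called 1 in each, Clock and Nr1d1, against 1151 of 24281 and 509 of 29046 genes in all. In the kidney at 1340 mg/kg/d 1 of the 14 rose, Bhlhe40, from 91.7 ± 11.5 to 155 ± 30.4 CPM (SD, n = 4 each, adjusted p = 0.0393 in edgeR), and 4 had an unadjusted p under 0.05, against 0.12% and 8.94% of all genes. The summed level of the 14 genes there ran from 613.7 to 936.2 CPM in water kidneys and from 1109 to 1376 CPM in NMN kidneys, and its part in the results of the 9 genes was not tested. Exons of Ncor1, Ep300, Foxo1, Cebpa, Nr1h3, Plin4, Acaa1b, Nr1d1, Bhlhe40, Dbp and Arntl overlap those of another annotated gene, so that their counts are less certain.

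Markers of other cell types were read beside these results as whole lists. Adipocytes also make Angptl4, Plin2 and Cd36. The 7 adipocyte markers summed to at most 2.18 CPM in any liver library and 4 or 5 of the 7 were at 0 in each liver group, Lep, Cidea and Ucp1 in every one. In the kidney the same sum was 30.2, 28.0, 18.7 and 80.8 CPM in water mice and 3.84, 5.69, 89.2 and 5.61 CPM in NMN mice at 1340 mg/kg/d, led by Cfd. The sum at 2680 mg/kg/d was 213.3, 255.8 and 307.7 CPM against 184.9, 238.9 and 389.9 CPM, and its part in the kidney results was not tested. Over both schedules 1 of 5 hepatocyte markers fell in the liver, Ttr by 0.65 on the log2 scale (SE 0.12, adjusted p = 0.00708 in edgeR), and 2 of 8 tubule markers fell in the kidney, Slc5a2 by 0.59 (adjusted p = 0.0145) and Slc34a1 by 0.32 (adjusted p = 0.0455), where 4.21% and 1.28% of all genes passed. Both overlap exons of another gene, and the call of Slc34a1 was lost without any one of 11 of the 14 libraries. Of the markers of podocytes, adipocytes, endothelium, macrophages, stellate cells and fibroblasts, and lymphocytes, none of 24 tested in the liver and none of 28 in the kidney passed in edgeR or in DESeq2, with 6 and 5 at an unadjusted p under 0.05, against 21.9% and 13% of all genes. All 4 podocyte markers were higher on average in the kidney (median log2 fold change 0.33), 3 of them at an unadjusted p under 0.05. In the liver all 6 endothelial markers were higher (median 0.27) and all 6 macrophage markers lower (median -0.26) on average, 1 and 2 of them at an unadjusted p under 0.05. Of 5 bile duct markers 1 rose in the kidney (Epcam, 0.29, adjusted p = 0.0204 in edgeR), and none of 4 skeletal muscle markers was high enough to test. The part of these marker differences in the results of the 9 genes was not tested.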

How the data were processed

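Raw counts per gene were deposited by the authors for each of 28 libraries (14 liver, 14 kidney), made with STAR and HTSeq (mode intersection-strict, without strand) and not normalized. The authors tested them with DESeq2. HTSeq's summary lines were left out of library sizes. As a share of counted reads and these lines together, they averaged per group 3.45% to 11.6% (no feature), 1.82% to 3.76% (ambiguous) and 10.7% to 19.6% (not unique). Gene symbols and positions came from GENCODE M21 (GRCm38), which matched 53229 of the 54446 gene identifiers in the same version and 1180 in another, and left 37 without a symbol. The genome build named in the study's methods could not be matched to this one by name.

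The 9 members and all lists were chosen with earlier results of these data known. Each comparison was fitted over all genes with edgeR 4.0.16 (R 4.3.3, quasi-likelihood test, robust option, filterByExpr, TMM), and p-values were adjusted after Benjamini and Hochberg with a threshold of 0.05. NMN was compared with the water libraries of the same organ and schedule, over both schedules with schedule as a covariate, and between schedules and organs as interactions, which all reuse the same libraries. SEs were taken from the log2 fold change and the F statistic. CPM values were TMM-scaled within an organ and schedule, so that levels set across them come from separate scalings. Exact permutation tests used log2(CPM + 0.5). Alternatives were DESeq2 1.42.0, other normalizations, filters and thresholds, thinned counts, all libraries of an organ in one fit, the replicate number as a block, and each library left out. The scripts were tested on simulated data.

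Libraries held 12688324 to 33872983 counted reads. Mitochondrial transcripts took 9.48% to 9.71% of them in the kidney groups at 1340 mg/kg/d and 20.4% to 20.6% at 2680 mg/kg/d. No pair of libraries in a group agreed within sampling noise (chi-square per degree of freedom at least 6.27). The study describes its replicates as biological, and the floor of 3 counts used for Fgf21 covers counting error only. All 9 members were named in every comparison. From each list, genes among the 3 with the smallest p over both schedules were named, and Foxo1, Crtc2, Acsl3, Dbi, Lmf1 and Vnn3, Acsl5 in the liver and Bhlhe40 in the kidney, outside them, were named after their values were seen. The genes most like a member were the 3 with the highest Pearson's r over the 14 libraries of an organ. Some genes that these rules select are not reported here.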

Additional observations from a re-analysis of the deposited data

Results flagged for a closer look

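Cd36 in kidneys at 1340 mg/kg/d had 489 CPM in water replicate 1, while the other 3 water kidneys had between 332.5 and 352.4 CPM. The gap to the nearest of them was 0.873 of the range of the group, past the limit of Dixon's test for 4 samples. Of 35 groups of 4 tested in this way it was the only one, and chance flags about 1 in 20 groups. The same library stood apart in its clock genes, and the part of that in its Cd36 level was not tested.

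Fabp1 at 2680 mg/kg/d had every NMN liver below every water liver and every NMN kidney above every water kidney. The difference between the organs was -1.47 on the log2 scale and, tested as an interaction, did not pass (adjusted p = 0.15 in edgeR). The kidney side rests on 6 to 24 counts per library. In the comparison of those kidneys alone, Fabp1 passed the filter on low counts only through the NMN kidneys.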

How the results depend on the processing

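Over 87 values of the 9 genes, 1467 of 1591 alternatives kept the direction and the side of the threshold, 42 brought a value past it, 8 took one back and 74 turned the sign. The number of genes called moved far more, and DESeq2 called more than edgeR in each comparison. DESeq2's Wald test called 74 and 1450 genes in the liver at 1340 and 2680 mg/kg/d (2 and 883 in edgeR), 159 and 236 in the kidney (18 and 61), 1151 and 509 over both schedules in liver and kidney (564 and 204), 98 and 10 in their schedule interactions (10 and 1), and 27 and 1234 in the organ interactions at 1340 and 2680 mg/kg/d (0 and 422). Without a filter on low counts edgeR called 44, 1785, 269 and 514 genes in the same 4 comparisons, 771 in the kidney over both schedules, 71 and 106 in the schedule interactions, and 9 and 1307 in the organ interactions. Several of the 9 genes passed in that setting too, in the liver Vnn1 at 1340 mg/kg/d (adjusted p = 0.000597) and Vnn1, Fgf21, Plin2 and Fabp1 at 2680 mg/kg/d (between 0.000102 and 0.0261), in the kidney Fgf21 at 1340 mg/kg/d, Ppara, Vnn1 and Plin2 at 2680 mg/kg/d and Ppara, Vnn1, Fgf21, Angptl4 and Pdk4 over both schedules, and in interactions Fgf21, Angptl4, Plin2 and Fabp1. The cause was not tested. The adjusted p of Plin2 in the liver at 2680 mg/kg/d was 0.00539 there, and the value of Plin2 in the kidney over both schedules turned to 0.00125. With an adjusted p under 0.01 and a change over 2-fold, the calls were 0, 135, 2 and 3. All 14 libraries of an organ in one fit gave 6 genes for livers at 1340 mg/kg/d and 35 for kidneys at 2680 mg/kg/d, and dropping the robust option gave 5 in the kidney at 1340 mg/kg/d.

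The labels do not say whether a replicate number marks a shared mouse or day, and not every same-numbered pair had deviations that correlated over 0.1. Same-numbered water and NMN libraries correlated on average by 0.0415 and 0.15 in the liver and by 0.0437 and 0.0107 in the kidney, at 1340 and 2680 mg/kg/d. Same-numbered liver and kidney libraries correlated by 0.221 and 0.183 among water mice (0.117 to 0.331 and 0.124 to 0.26) and by 0.122 and 0.0219 among NMN mice (from -0.00852 and -0.00693). Every library correlated best with its own number between water and NMN livers at 2680 mg/kg/d and between liver and kidney of water mice in both schedules, a hint from the data and not from the design. The fit that took these numbers as a block called 16 genes in the liver and 75 in the kidney at 1340 mg/kg/d, 92 in the kidney at 2680 mg/kg/d, 2 in the schedule interaction of the kidney, and 5 and 248 in the organ interactions at 1340 and 2680 mg/kg/d. Under this block Angptl4 in the liver at 2680 mg/kg/d had 2.67 (adjusted p = 0.00566), and the schedule interaction of the liver turned to 0.030 for Fgf21 and 0.15 for Pdk4. No other call of the 9 genes changed under the block.

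Both remaining settings were chosen after the data had been seen. With the clock score as a covariate, 12, 7 and 96 genes were called in the liver at 1340 and the kidney at 1340 and 2680 mg/kg/d, and 919 in the liver over both schedules. Without both water replicate 1 libraries, 194 and 79 were called in the liver and the kidney over both schedules.

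Leaving out single libraries took the calls to between 0 and 18 in the liver at 1340 mg/kg/d, 211 and 1308 at 2680 mg/kg/d, 5 and 67 and 3 and 191 in the kidney, 177 and 1118 and 100 and 290 over both schedules, 7 and 25 and 0 and 1 in the schedule interactions of liver and kidney, and 0 and 9 and 118 and 1347 in the organ interactions at 1340 and 2680 mg/kg/d. Log2 fold changes that turned sign this way ran, in the liver at 2680 mg/kg/d, from -0.16 to 0.64 for Ppara, -0.14 to 0.27 for Creb3l3 and -0.12 to 0.48 for Cd36. In the kidney they ran from -0.19 to 0.028 for Fabp1 and -0.22 to 0.037 for Cd36 at 1340 mg/kg/d, and over both schedules from -0.077 to 0.032 for Plin2 and -0.32 to 0.22 for Creb3l3. Differences between schedules in the liver ran from -0.40 to 0.40 for Ppara, -1.16 to 0.65 for Fgf21, -1.09 to 1.11 for Pdk4, -0.19 to 0.35 for Plin2 and -0.24 to 0.18 for Creb3l3, and in the kidney from -0.22 to 0.20 for Ppara and -0.18 to 0.064 for Cd36. Differences between organs at 1340 mg/kg/d ran from -0.52 to 0.016 for Ppara, -0.0069 to 0.63 for Angptl4, -1.30 to 0.045 for Pdk4 and -0.36 to 0.053 for Fabp1. At 2680 mg/kg/d they ran from -0.71 to 0.062 for Ppara, -0.15 to 0.54 for Vnn1, -1.08 to 0.68 for Pdk4 and -0.068 to 0.52 for Plin2. With 3 or 4 mice a group, differences of the size of the SEs given were not detectable, and the counts of Fgf21 in both organs and of Creb3l3 and Fabp1 in the kidney limited what depth could show.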
